A study of Mus musculus with 6 samples.

Results

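Perivascular macrophages lie along the vessels of the brain, outside the parenchyma that microglia occupy. The group described here is a set of 8 mRNAs commonly used to mark these cells in mice: Mrc1, Cd163, Stab1, Siglec1, Lyve1, F13a1, Pf4 and Cbr2. The rule took every gene of the count table that bears 1 of these names, whatever its value, and found all 8 among 18263 genes. The samples were hippocampus of 5xFAD mice and of WT littermates, all 6 months old, with 3 RNA-seq libraries per genotype. Whether each library came from 1 mouse is not given in the sources used here. 5xFAD mice overexpress mutant human transgenes of familial Alzheimer's disease, APP with the Swedish, Florida and London changes among them, from the neuronal Thy1 promoter, and WT littermates carry none. Whole hippocampus was used, with no sorting of cells, so that fewer cells of a type and less RNA per cell cannot be told apart. Intracardiac perfusion with saline is described for the study's 3-month-old mice, and for the 6-month-old mice it is not given in the sources used here.

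Perivascular macrophages belong, with the macrophages of the meninges and choroid plexus, to the border-associated macrophages of the brain. They take up proteins, lipids and debris from the fluid around vessels through scavenger and lectin receptors, and in amyloid models they have been studied for the clearance of vascular amyloid. Microglia share much of the myeloid machinery of these cells, including the lineage factor PU.1 (Spi1), but express little Mrc1, Lyve1 or F13a1 at rest and are marked instead by genes such as P2ry12, Tmem119 and Sall1. The comparison of 5xFAD with WT hippocampus therefore asked whether the border macrophage transcripts moved as those of the parenchymal microglia did.

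Promoter windows of the RefSeq annotation (GRCm38.p6), running from 250 bases before to 50 after each annotated start, were found for 6 of the 8 genes. Those of Mrc1, Stab1 and F13a1 are shown because the levels of these 3 genes went together most closely across libraries among the markers tested, as described further on. Each was searched on both strands for GAGGAA, a core of the sites bound by PU.1, and the matches are in capitals (a TTCCTC in capitals is a match on the other strand). The windows are chr2:14229164-14229463 on the plus strand for Mrc1, chr14:31168592-31168891 on the minus strand for Stab1 and chr13:37050195-37050494 on the minus strand for F13a1, each written 5′ to 3′ along its gene.
Mrc1: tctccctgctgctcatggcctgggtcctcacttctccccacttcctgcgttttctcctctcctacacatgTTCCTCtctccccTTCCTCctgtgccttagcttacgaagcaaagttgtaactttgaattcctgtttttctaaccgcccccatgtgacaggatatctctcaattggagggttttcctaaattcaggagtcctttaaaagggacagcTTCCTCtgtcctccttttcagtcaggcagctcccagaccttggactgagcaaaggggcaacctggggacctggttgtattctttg
Stab1: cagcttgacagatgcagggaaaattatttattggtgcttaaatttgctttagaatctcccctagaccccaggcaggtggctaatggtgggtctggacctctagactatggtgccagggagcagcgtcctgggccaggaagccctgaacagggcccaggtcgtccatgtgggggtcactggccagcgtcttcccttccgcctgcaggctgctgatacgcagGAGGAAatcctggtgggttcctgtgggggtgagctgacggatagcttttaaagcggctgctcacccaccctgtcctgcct
F13a1: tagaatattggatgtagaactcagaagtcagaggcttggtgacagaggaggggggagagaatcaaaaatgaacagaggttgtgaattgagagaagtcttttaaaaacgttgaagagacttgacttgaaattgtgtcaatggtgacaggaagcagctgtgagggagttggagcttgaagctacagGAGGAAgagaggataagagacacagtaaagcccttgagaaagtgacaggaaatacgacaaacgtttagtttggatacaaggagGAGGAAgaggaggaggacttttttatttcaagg
The core occurred 3 times in the window of Mrc1, 2 times in this window of F13a1 and 1 time in that of Stab1. It was also in the windows of Pf4 and Cbr2 and not in that of Cd163, so that 5 of the 6 genes held it in a window (F13a1 has a further window, with 1 match). Of all 32851 promoter windows of this length, 28.3% held the same letters. A match describes the sequence and is not a measured binding site.

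The libraries held 8.45 to 12.6 M counts each. Levels are given as CPM, counts relative to the TMM-scaled total of a library, and 1 count was worth 0.0796 to 0.124 CPM. WT 3 stood apart from the other 5 libraries, with Spearman correlations of 0.916 to 0.931, and its deviations followed the GC content of transcripts (rho -0.619 across genes). The log2 differences of several markers are also given without it, while sums, spreads and correlations across libraries include it. Each log2 difference is that of 5xFAD over WT in edgeR's quasi-likelihood test, with its standard error (SE), and p-values were adjusted by Benjamini-Hochberg over the 12952 genes that passed a filter on low counts. Of the 8 markers 7 passed this filter and Pf4 did not.

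None of the perivascular macrophage markers differed between 5xFAD and WT hippocampus beyond the spread between libraries. Of 7 markers tested, 0 passed an adjusted p of 0.05 in the edgeR test and 0 had an unadjusted p under 0.05, and DESeq2 also called 0. Of all genes tested, 0.656% passed the adjusted threshold, all of them higher in 5xFAD, and 6.3% had an unadjusted p under 0.05. The values of the 5xFAD and WT libraries overlapped for all 8 markers, whereas the groups did not overlap in 14.8% of all genes tested. With so few markers, counts of 0 lie near these background shares. The median log2 difference of the 7 markers was -0.09, beside -0.02 over all genes tested. Summed over the 8 genes, 5xFAD libraries 1, 2 and 3 had 34.4, 29.1 and 41.2 CPM, and WT libraries 1, 2 and 3 had 33.6, 31.4 and 42.1 CPM. The sums averaged 34.9 ± 6.05 CPM in 5xFAD and 35.7 ± 5.66 CPM in WT (SD, n = 3), and most of each sum was Stab1.

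**Figure D1:**
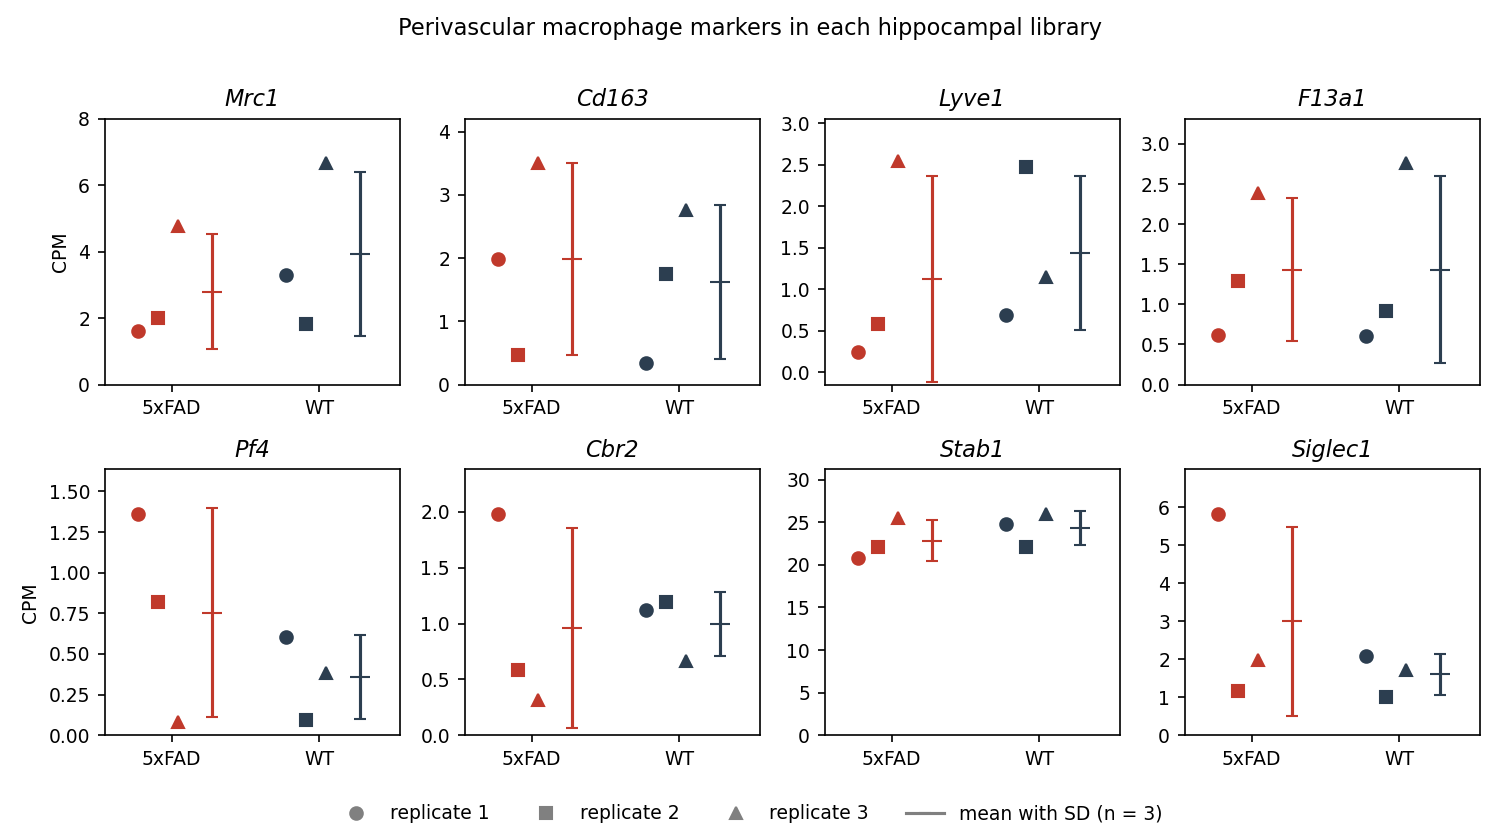
CPM of the 8 perivascular macrophage markers in each library, with 5xFAD left and WT right in every panel, symbols for replicates 1 to 3 and the mean with its SD (n = 3). The vertical axes differ between panels. Stab1 stays between 20.8 and 26.0 CPM, while the other 7 genes vary several-fold within at least 1 genotype and overlap between genotypes.

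The endocytic receptors were described first. Mrc1 encodes the mannose receptor CD206, which binds glycans on proteins and microbes and carries them into the cell (chromosome 2, 14229392 to 14332057, plus strand, mm10). It had 13, 17 and 60 counts in 5xFAD libraries 1, 2 and 3, or 1.61, 1.99 and 4.78 CPM. In WT libraries 1, 2 and 3 it had 38, 20 and 70 counts, or 3.29, 1.84 and 6.67 CPM. Replicate 3 was the highest of both genotypes, and the lowest WT library lay below the second 5xFAD library. Mrc1 averaged 2.79 ± 1.73 CPM in 5xFAD and 3.93 ± 2.48 CPM in WT (SD, n = 3). The log2 difference was -0.46 ± 0.586 (SE; 95% interval -1.79 to 0.87; edgeR adjusted p = 0.868). Without WT 3 it was 0.16 (adjusted p = 0.943), so that the sign of the Mrc1 estimate rested on that library.

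Cd163 encodes the receptor that takes up haemoglobin bound to haptoglobin (chromosome 6, 124304656 to 124330527, plus strand). It had 1.98, 0.469 and 3.50 CPM in 5xFAD libraries 1, 2 and 3, and 0.346, 1.75 and 2.76 CPM in WT libraries 1, 2 and 3. Both genotypes had a library of only 4 counts, 5xFAD 2 and WT 1, so the range within either genotype was larger than the distance between their means. The log2 difference was 0.33 ± 0.807 (SE; adjusted p = 0.924). Without 5xFAD 3 the estimate was -0.41, without WT 1 it was -0.15, and without WT 3 it was 0.97.

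Stab1 encodes stabilin-1, a scavenger receptor of macrophages and of sinusoidal endothelium (chromosome 14, 31139013 to 31168641, minus strand). Its counts were 168, 189 and 321 in 5xFAD libraries 1, 2 and 3, and 287, 241 and 273 in WT libraries 1, 2 and 3. These corresponded to 20.8, 22.2 and 25.6 CPM in 5xFAD, against 24.8, 22.1 and 26.0 CPM in WT. The highest library exceeded the lowest by a factor of only 1.25. Stab1 averaged 22.8 ± 2.44 CPM in 5xFAD and 24.3 ± 1.99 CPM in WT (SD, n = 3), a log2 difference of -0.09 ± 0.203 (SE; adjusted p = 0.918). The 95% interval, -0.55 to 0.37, corresponds to 0.684 to 1.29 times the WT level and was the narrowest of the 7 markers tested. Stab1 shares 112 bases with Nt5dc2 on the opposite strand, and without a stated strand setting their reads there cannot be told apart. Nt5dc2 was at 8.62 CPM on average in 5xFAD and 6.19 CPM in WT (log2 difference 0.48, adjusted p = 0.818).

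Siglec1 encodes sialoadhesin, or CD169, a lectin by which macrophages bind sialic acid on other cells and on viruses (chromosome 2, 131069220 to 131086765, minus strand). It had 47, 10 and 25 counts in 5xFAD libraries 1, 2 and 3, or 5.82, 1.17 and 1.99 CPM. WT libraries 1, 2 and 3 had 24, 11 and 18 counts, or 2.08, 1.01 and 1.71 CPM. A single library, 5xFAD 1, stood above all others, and the remaining 5xFAD libraries lay within the WT range. The log2 difference, 0.88 ± 0.637 (SE; 95% interval -0.56 to 2.32; unadjusted p = 0.199, adjusted p = 0.815), was the largest of the 7 markers tested. Without 5xFAD 1 it was -0.0045. The ratio of the group totals, 1.75 (exact 95% interval 1.22 to 2.52), covers counting error only and not the spread between libraries.

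Lyve1 encodes a hyaluronan receptor shared by a subset of perivascular macrophages and lymphatic endothelium (chromosome 7, 110850607 to 110863239, minus strand). It had 2, 5 and 32 counts in 5xFAD libraries 1, 2 and 3, or 0.248, 0.586 and 2.55 CPM. WT libraries 1, 2 and 3 had 8, 27 and 12 counts, or 0.692, 2.48 and 1.14 CPM. The high libraries were 5xFAD 3 and WT 2, and the 5xFAD range covered the WT range. The log2 difference was -0.27 ± 0.817 (SE; adjusted p = 0.942), and it was 0.16, 0.02 and 0.37 without 5xFAD 1, without 5xFAD 2 and without WT 2.

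Of the secreted and cytosolic products, F13a1 encodes the A subunit of clotting factor XIII, the transglutaminase that cross-links fibrin (chromosome 13, 36867178 to 37050244, minus strand). It had 0.620, 1.29 and 2.39 CPM in 5xFAD libraries 1, 2 and 3, and 0.606, 0.918 and 2.76 CPM in WT libraries 1, 2 and 3. The genotypes had nearly the same low, middle and high values, and each total was 46 counts. The log2 difference was 0.05 ± 0.706 (SE; adjusted p = 0.988). It was -0.57 without 5xFAD 3, -0.32 without WT 1, -0.19 without WT 2 and 0.95 without WT 3. The gene overlaps the antisense genes Gm30489 and Gm49144, whose reads cannot be separated without strand.

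Cbr2 encodes a carbonyl reductase, an enzyme that reduces aldehydes and ketones (chromosome 11, 120729489 to 120732114, minus strand). It had 1.98, 0.586 and 0.318 CPM in 5xFAD libraries 1, 2 and 3, and 1.12, 1.19 and 0.667 CPM in WT libraries 1, 2 and 3. The 5xFAD libraries held both the highest and the lowest values, and the 3 WT libraries lay between them. The log2 difference was -0.11 ± 0.723 (SE; adjusted p = 0.971), and without 5xFAD 2 it was 0.14.

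Pf4 encodes the CXC chemokine CXCL4, which platelets store in granules and border macrophages also express (chromosome 5, 90772435 to 90773383, plus strand). It had 11, 7 and 1 counts in 5xFAD libraries 1, 2 and 3 and 7, 1 and 4 counts in WT libraries 1, 2 and 3, too few to pass the filter. These were 1.36, 0.821 and 0.0796 CPM in 5xFAD, against 0.606, 0.0918 and 0.381 CPM in WT. A library of 1 count occurred in each genotype. The ratio of the group totals was 1.79 (exact 95% interval 0.824 to 4.04, counting error only), and a fit without the filter gave a log2 difference of 0.98 ± 1.08 (SE; adjusted p = 0.810). The 9 platelet and megakaryocyte genes of the table summed to 16.4, 12.4 and 11.9 CPM in 5xFAD libraries 1, 2 and 3, and to 9.86, 10.2 and 6.38 CPM in WT libraries 1, 2 and 3. This sum, mostly of Gp1bb, Itgb3 and Itga2b, was highest in 5xFAD 1, as Pf4 was, and did not overlap between the genotypes. Of these genes only Itgb3 had groups without overlap (log2 difference 1.68, edgeR adjusted p = 0.185), as 14.8% of all genes tested did. Gp1bb and Itga2b overlapped, with log2 differences of 0.08 and 0.12. The platelet-restricted genes Ppbp, Gp9 and Gp1ba had 1, 5 and 0 counts over all 6 libraries. The part of platelets in the Pf4 counts was not tested.

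Levels between genes were compared per kilobase of exon. Over the 6 libraries Stab1 averaged 2.29 ± 0.209 CPM per kb (SD, n = 6) and was the highest of the 8. Pf4 followed at 0.773 ± 0.679, Cbr2 at 0.738 ± 0.447, Mrc1 at 0.528 ± 0.316 and Lyve1 at 0.439 ± 0.341 CPM per kb. Cd163 averaged 0.330 ± 0.228, Siglec1 0.322 ± 0.249 and F13a1 0.212 ± 0.138 CPM per kb. Only Stab1 was separated from its neighbour in this order, since its lowest library, 2.02 CPM per kb, lay above the highest library of any other marker, 1.89 CPM per kb of Pf4. The ranges of any other neighbouring pair in this order overlapped, and the order was not tested. On the same scale the microglial genes P2ry12, Sall1 and Cx3cr1 averaged 8.87, 14.3 and 35.2 CPM per kb.

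Apart from Stab1, the markers were uneven between libraries. Over the 6 libraries the highest value exceeded the lowest by a factor of 4.14 for Mrc1, 4.56 for F13a1, 5.76 for Siglec1, 6.23 for Cbr2, 10.1 for Cd163, 10.3 for Lyve1 and 17.1 for Pf4. Low counts add sampling error, so the spread was set beside that of genes of similar level, those within 0.5 of the same mean log2 CPM. The within-group SD of Cd163 on the log2 scale was 1.27, and 97.4% of 1013 such genes had a smaller one. The corresponding share was 89.0% for Lyve1, 88.2% for Mrc1, 82.7% for Siglec1, 78.1% for F13a1 and 55.7% for Cbr2. Stab1 lay at the other end, with an SD of 0.14 and only 7.28% of 2087 genes below it.

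The markers did not share 1 order across libraries. Mrc1, Stab1, F13a1 and Cd163 were highest in replicate 3 of both genotypes, Lyve1 in 5xFAD 3 and WT 2, and Siglec1, Cbr2 and Pf4 in 5xFAD 1. As a description over 6 libraries, which share depth and composition effects, log2 CPM of Mrc1 and Stab1 correlated with a Pearson's r of 0.960, of Mrc1 and F13a1 with 0.778, and of Stab1 and F13a1 with 0.664. Mrc1 and Cbr2 gave -0.637, and Cbr2 and F13a1 -0.827. The genes with the pattern most like Mrc1 among all genes tested were Tstd2, Llph, 1110001J03Rik, Col3a1 and Dbndd2, with r of 0.988 to 0.997, and 44 genes reached 0.95. Col3a1, a fibrillar collagen gene, had 2.48, 2.70 and 4.86 CPM in 5xFAD libraries 1, 2 and 3, and 3.37, 2.48 and 6.38 CPM in WT libraries 1, 2 and 3. F13a1 stood at rank 1249 in this order and Cd163 at rank 4858.

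Transcripts of other cell types that a piece of hippocampus can bring along were uneven too, and their part in the marker values was not tested. The 7 red cell genes summed to 49.7, 4.69 and 4.30 CPM in 5xFAD libraries 1, 2 and 3, and to 14.7, 19.0 and 13.4 CPM in WT libraries 1, 2 and 3. The highest of these, 5xFAD 1, was also the highest in Siglec1, Cbr2 and Pf4. The 9 choroid plexus genes, mostly transthyretin (Ttr), summed to 752, 4446 and 1844 CPM in 5xFAD libraries 1, 2 and 3, and to 1296, 2364 and 417 CPM in WT libraries 1, 2 and 3. Mrc1 was highest in WT 3, where the choroid plexus sum was lowest. The 10 fibroblast genes ranged from 326 to 429 CPM in 5xFAD and from 267 to 436 CPM in WT, the 10 genes of blood endothelium from 322 to 358 CPM and from 293 to 310 CPM, and the 9 mural genes from 232 to 312 CPM and from 240 to 261 CPM. The 7 neutrophil genes summed to 2.23, 1.17 and 0.239 CPM in 5xFAD libraries 1, 2 and 3, and to 0.519, 0.184 and 0.476 CPM in WT libraries 1, 2 and 3, with 5xFAD 1 again the highest. Most of it in 5xFAD 1 and 2 was Ngp, a neutrophil granule gene, and 4 of the 7 had no count in any library. The 11 monocyte and dendritic cell genes summed to 166, 162 and 158 CPM in 5xFAD libraries 1, 2 and 3. In WT libraries 1, 2 and 3 they summed to 232, 216 and 135 CPM. Over the 6 libraries Nr4a1, Vcan and Flt3 of this list had 8160, 2333 and 642 counts, while Ly6c2, Ccr2 and Plac8 had 8, 8 and 0.

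**Figure D2:**
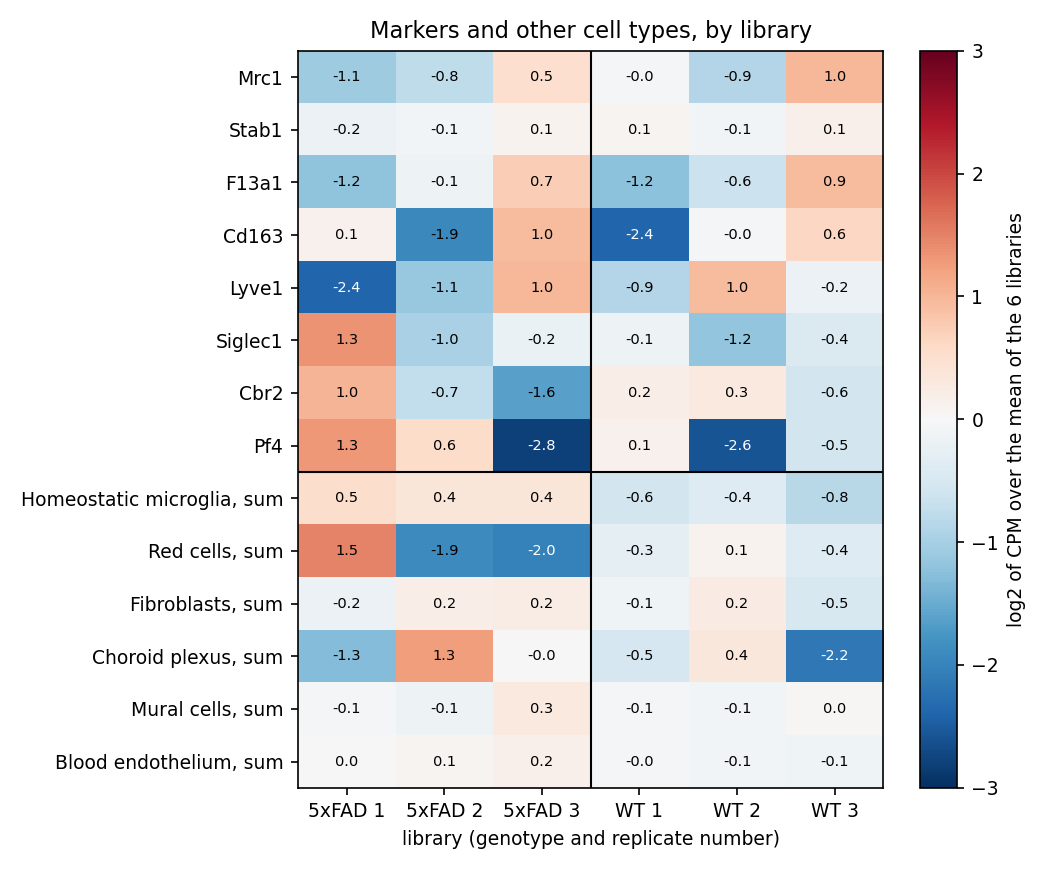
Level of each marker (upper 8 rows) and summed level of 6 cell type lists (lower rows) in each library, with the 5xFAD libraries left and the WT libraries right, as the log2 of CPM over the mean of the 6 libraries. Siglec1, Cbr2, Pf4 and the red cell sum are all highest in 5xFAD 1, and the genotypes are separated in the microglial sum and, by a small margin, in that of blood endothelium.

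A wider list of 25 genes of border macrophages was then examined, of which 21 were in the table and 6 passed the filter. None of the 6 passed an adjusted p of 0.05 (edgeR), and their median log2 difference was 0.22. Dab2, a clathrin adaptor that microglia can also express, was the only one with an unadjusted p under 0.05. It had 20.9, 27.3 and 29.6 CPM in 5xFAD libraries 1, 2 and 3, and 17.3, 17.5 and 13.5 CPM in WT libraries 1, 2 and 3. Its groups did not overlap, and the log2 difference was 0.69 ± 0.232 (SE; unadjusted p = 0.0159, adjusted p = 0.524). The transcription factor gene Maf gave 0.41 (adjusted p = 0.835), the collectin receptor gene Colec12 -0.40 (0.848), the cyclic ADP-ribose hydrolase gene Cd38 0.30 (0.879) and the endothelin receptor gene Ednrb -0.11 (0.908).

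Several defining members of the wider list were close to absent at this depth. The folate receptor gene Folr2 had 25 counts over the 6 libraries, Cd209f, a C-type lectin gene, 17, Ms4a7 11, and the lectin genes Mgl2 and Clec10a 10 and 2. All 10 counts of Mgl2 fell in WT libraries, 8 of them in WT 3. The label of perivascular macrophages therefore rested on low counts of most markers and on Stab1, whose level was far above that of the others.

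The median estimate was higher for the microglial genes than for the 7 markers tested, and the lists were not tested against each other. All 16 homeostatic microglia markers had a fitted difference above 0, with a median log2 difference of 1.17, and 13 of 16 had an unadjusted p under 0.05, against 4.52% of all genes tested in that direction. None of the 16 passed the adjusted threshold in the edgeR quasi-likelihood test. The count was also 0 with either other scaling, in limma-voom and with any single library other than WT 3 left out. It was 1 without the filter, 3 after GC correction and 9 without WT 3. DESeq2, the edgeR likelihood ratio test and the replicate block each gave 7. Their summed level was 987, 882 and 889 CPM in 5xFAD libraries 1, 2 and 3, and 470, 524 and 390 CPM in WT libraries 1, 2 and 3, with no overlap. Sall1, a factor that keeps microglial identity, had 109, 98.4 and 107 CPM in 5xFAD, against 56.2, 55.2 and 25.6 CPM in WT. Cx3cr1, the fractalkine receptor, averaged 233 ± 37.4 CPM in 5xFAD and 84.3 ± 44.1 CPM in WT, and P2ry12, a purine receptor, 28.5 ± 2.68 and 16.6 ± 3.18 CPM (SD, n = 3). Tmem119 averaged 26.8 ± 5.40 CPM in 5xFAD and 15.0 ± 5.28 CPM in WT, and the lectin gene Siglech 22.5 ± 1.88 and 6.79 ± 3.12 CPM.

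The precision of the markers differed against this shift. The 95% intervals of all 7 markers tested held 0. Those of Mrc1 and Stab1 ended below the microglial median of 1.17, which has an error of its own, while those of the other 5 markers held it. The share of all genes tested with such an interval was not determined. Within the microglial list itself, the interval of Sparc also ended below the median, at 0.64. The interval of Stab1 ended below the median of the same fit in all 6 fits that left out 1 library. That of Mrc1 did so in 3 of 6, and held the median without 5xFAD 1 (upper bound 1.31, median 1.11), without 5xFAD 2 (1.29 and 1.23) and without WT 3 (1.28 and 1.00). Whether Mrc1, Cd163, Lyve1, F13a1, Cbr2 and Siglec1 moved less than the microglial genes was therefore not detectable in these libraries.

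Genes that microglia and border macrophages both express went with the microglial markers. Of 15 tested, 7 rose, against 0.656% of all genes, with a median log2 difference over the 15 of 2.01. The count was 3, 2 and 2 without 5xFAD 1, 2 and 3, and 11 without WT 3. Ptprc, the leukocyte phosphatase CD45, rose to 8.06 ± 1.60 CPM in 5xFAD, against 1.86 ± 0.317 CPM in WT (SD, n = 3; log2 difference 2.12, edgeR adjusted p = 0.0305). Spi1, which encodes PU.1, averaged 14.9 ± 1.84 CPM in 5xFAD and 4.50 ± 2.59 CPM in WT (1.72, adjusted p = 0.235), and Aif1, which encodes IBA1, 5.25 ± 0.700 and 3.09 ± 2.01 CPM. The call of Ptprc held in 1 of 6 fits that left out a library, that without WT 3, and its adjusted p in these fits ran between 0.00127 and 0.279. Csf1r, the receptor on which both cells depend, had only 23 counts over the 6 libraries and was not tested. C1qa of the same list had 2686 counts, and the reason for the low count of Csf1r, in the cells or in the counting, was not determined.

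**Figure D3:**
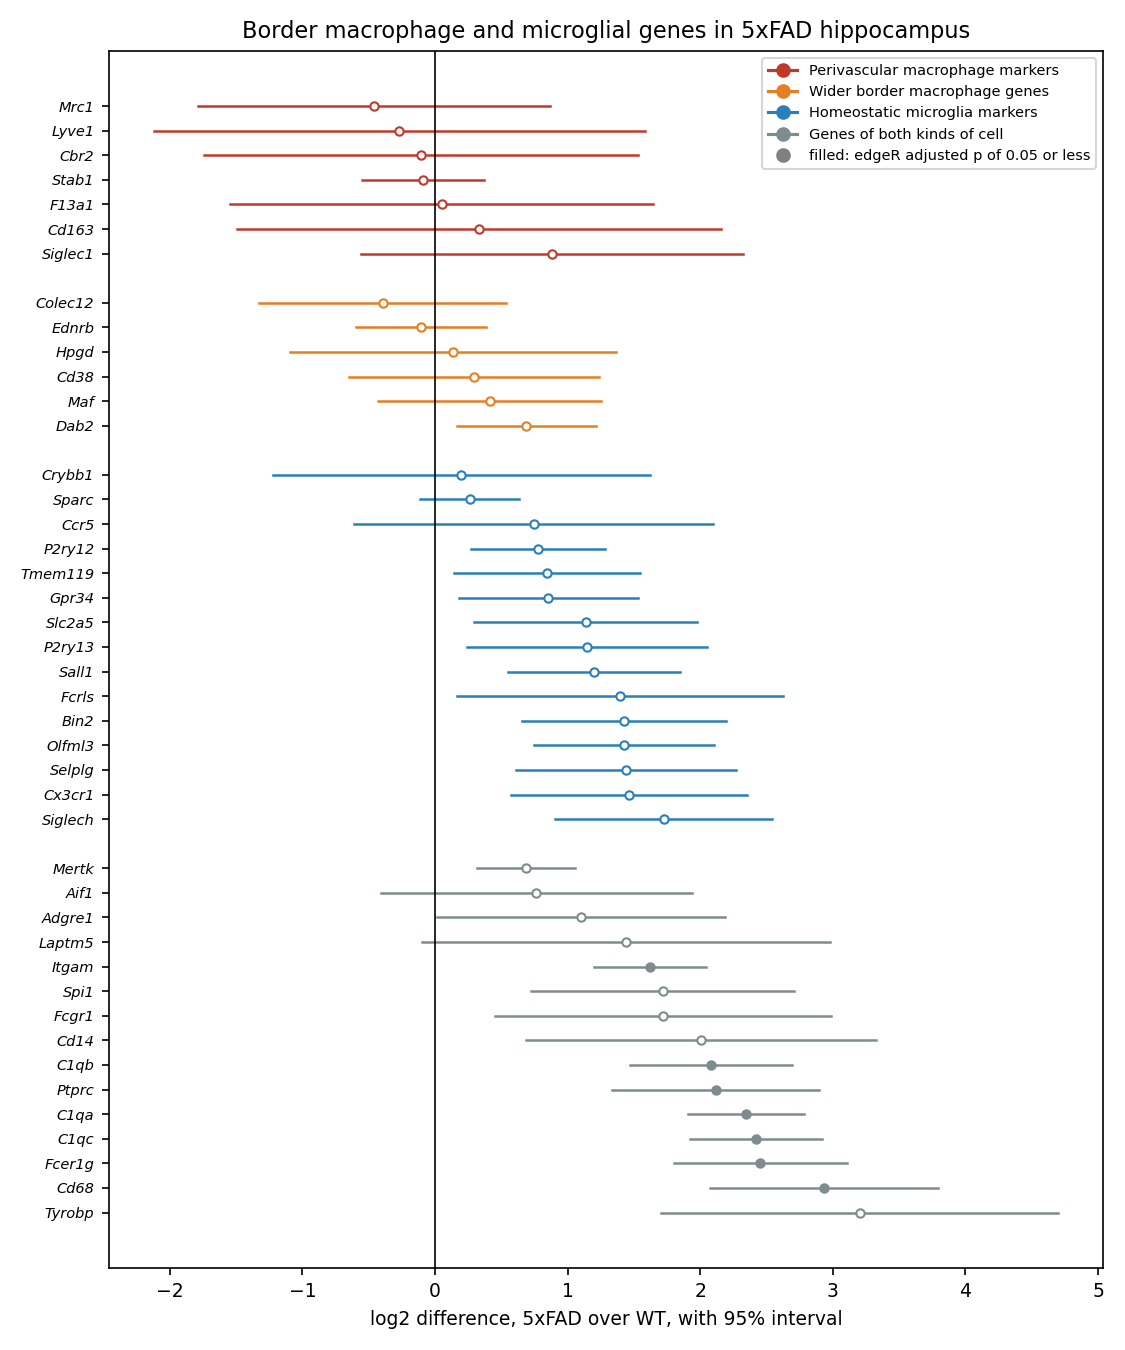
Log2 difference of 5xFAD over WT with its 95% interval for the genes tested of 4 lists, each list sorted by its estimate, with filled points for an edgeR adjusted p of 0.05 or less. The 7 perivascular macrophage markers lie on both sides of 0 with wide intervals except Stab1, while the homeostatic microglia markers drawn, 15 of the 16, lie above 0.

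The markers were also set relative to the summed CPM of the 16 microglial genes of the same library. The 8 markers together came to 3.49, 3.30 and 4.63% of that sum in 5xFAD libraries 1, 2 and 3, and to 7.15, 5.99 and 10.8% in WT libraries 1, 2 and 3. Stab1 alone was 2.11, 2.51 and 2.87% in 5xFAD, against 5.29, 4.22 and 6.66% in WT. This difference, -1.10 on the log2 scale, gave p = 0.1 in a two-sided exact permutation test, the smallest that 3 against 3 libraries allow, so that none of the 8 ratios tested could pass 0.05. Mrc1 was 0.163, 0.226 and 0.537% in 5xFAD, against 0.700, 0.350 and 1.71% in WT (log2 difference -1.47, exact permutation p = 0.2). Without WT 3 the difference for Mrc1 was -0.87, and it was -2.02 without WT 2. Of the 8 markers only Stab1 had ratios lower in 5xFAD without overlap, and 73.6% of all genes tested did. Against the genes shared by both cells it was Mrc1, Cbr2 and Stab1, beside 93.3% of all genes. A lower ratio was thus what most genes of the tissue gave when set against the higher microglial sum.

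Relatives of the markers were counted by family, with the member genes included. Of all genes tested, 0.656% passed the adjusted threshold and 6.3% had an unadjusted p under 0.05. Of 11 scavenger and mannose receptor genes tested 0 passed the adjusted threshold and 1 had an unadjusted p under 0.05. That gene was Mrc2, a collagen-binding relative of Mrc1, with 42.9, 48.5 and 66.9 CPM in 5xFAD libraries 1, 2 and 3, and 32.9, 20.4 and 17.0 CPM in WT libraries 1, 2 and 3. The log2 difference of Mrc2 was 1.17 ± 0.291 (SE; adjusted p = 0.210), with no overlap between the groups. Scarb2, Scara3 and Scarb1, which with Mrc2 had the most counts of the list, gave 0.04, 0.17 and 0.25.

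In the Siglec family, whose members bind sialic acid, 1 of 5 genes tested rose, against 0.656% of all genes. Of the 5, 3 were higher with an unadjusted p under 0.05, against 4.52% of all genes. Cd33, an inhibitory receptor of microglia, had 14.6, 13.2 and 15.4 CPM in 5xFAD libraries 1, 2 and 3, and 4.15, 4.32 and 3.52 CPM in WT libraries 1, 2 and 3, far outside the spread of either group (log2 difference 1.85 ± 0.259, SE; adjusted p = 0.0158). With 1 library left out the call held in 2 of 6 fits, without WT 2 and without WT 3, with adjusted p between 0.000244 and 0.147. Siglech, also in the microglial list, gave 1.73 (adjusted p = 0.108), Siglecf 1.93 (0.335) and Mag, the myelin Siglec, 0.32 (0.811). Among the hyaluronan receptors Cd44 gave 1.27 ± 0.346 (SE; adjusted p = 0.297) with no overlap, beside -0.27 for Lyve1. The 5 carbonyl reductase genes lay between -0.17 and 0.13, with 0 called.

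The clotting and fibrin list had 0 of 12 genes called. Tgm1, a transglutaminase best known from skin, had 2.11, 1.52 and 2.79 CPM in 5xFAD libraries 1, 2 and 3, and 0.0865, 0.367 and 0.0953 CPM in WT libraries 1, 2 and 3, or 71 counts in all (3.48 ± 0.689, SE; adjusted p = 0.0827). The plasminogen activator genes differed in sign, with Plau at 1.65 (unadjusted p = 0.00521) and Plat at -0.47 (unadjusted p = 0.0467), and neither passed the adjusted threshold. Of 8 genes of haem and haemoglobin handling tested, Cd163 among them, 0 were called. Hmox1, which opens the haem ring, gave 1.28 (adjusted p = 0.375), and Ftl1, the ferritin light chain, 0.79 (0.227).

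Of 11 tested genes that regulate the Mrc1 and Cd163 programme, 1 rose, against 0.656% of all genes. Il10ra, the receptor chain for interleukin-10, had 8.18, 8.44 and 10.2 CPM in 5xFAD libraries 1, 2 and 3, and 2.60, 1.65 and 2.38 CPM in WT libraries 1, 2 and 3 (2.01 ± 0.330, SE; adjusted p = 0.0318). With 1 library left out the call held in 1 of 6 fits, that without WT 3, with adjusted p between 0.00159 and 0.272. Tgfb1, which encodes a cytokine that restrains macrophages, gave 1.62 (adjusted p = 0.266). Stat6, which carries interleukin-4 signals, gave 0.82 (adjusted p = 0.418), and Stat3 0.58 (0.449). Il4 itself had no count in any library, which for 3 counts as the floor allows up to 0.239 to 0.372 CPM per library.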

How the data were processed

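RNA-seq libraries of rRNA-depleted total RNA came from 6 samples, 3 per genotype. The authors deposited raw counts per gene, and the submitters' processing notes name cutadapt 1.9.3 for trimming, HISAT2 2.0.4 with mm10 for alignment and HTSeq 0.9.1 for counting, with annotation release and strand setting not given in the sources used here. The deposited log2 values, 6 columns normalised by the authors with edgeR 3.16.5, were not used.

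Genes were filtered (filterByExpr, minimum count 10), scaled by TMM and tested in edgeR 4.0.16 (R 4.3.3), genotype being the only term. CPM are counts relative to the scaled total, with a prior count of 2 for log2 CPM. The spread behind the p-values is that between samples plus library preparation, and exact intervals cover counting error only. On simulated counts for the same comparison and 12952 genes, 79% of 4-fold and 13% of 2-fold changes were recovered. Positions and exon lengths came from GENCODE M21 on mm10, which held 98.7% of the genes. Other settings were another scaling, no filter, DESeq2 1.42.0, limma-voom (limma 3.58.1), the edgeR likelihood ratio test, a GC correction, the replicate block and leaving out each library.

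The markers and all gene lists were chosen with earlier results of these data known. Named genes were all 8 markers, of the border macrophage and family lists those called, those of smallest p and those of highest CPM, of the cell type lists those of highest CPM, fixed examples of microglial and shared genes, and the 5 genes with the highest Pearson's r with Mrc1. Genes with few counts named as absent, the defining platelet and monocyte genes among them, and Nt5dc2 were named after their values were seen. Some genes that this rule selects are left out of the text.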

Additional observations from a re-analysis of the deposited data

How the results depend on the processing

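None of the 7 markers tested was called in any setting: other scalings, no filter (8 tested), DESeq2, limma-voom, the likelihood ratio test, the GC correction, the replicate block and each library left out. Signs were not stable. With 1 library left out at a time, the log2 difference ran between -1.13 and 0.16 for Mrc1, -0.41 and 0.97 for Cd163, -1.75 and 0.37 for Lyve1, -0.57 and 0.95 for F13a1, -1.16 and 0.14 for Cbr2 (which passed the filter in 3 of the 6 fits) and -0.0045 and 1.26 for Siglec1. Stab1 stayed between -0.18 and -0.03, and was -0.38 after GC correction. Ratios to the microglial sum ran between -2.02 and -0.87 for Mrc1, -1.59 and 0.12 for Cd163, -1.21 and 0.91 for Pf4 and -0.96 and 0.12 for Siglec1. Without WT 3 the ratios were 0.04 for Cd163 and -0.15 for F13a1, against -0.68 and -0.90 with it. Leaving Sparc, which astrocytes and vessels also express, out of the microglial list was chosen after seeing the data. It gave -1.44 for Stab1 and -1.81 for Mrc1, with Cbr2 then also lower in 5xFAD without overlap. The share of all genes lower without overlap was not determined for this shorter list, and was 73.6% for the full list.

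Over all genes, 85 were higher and 0 lower in 5xFAD. DESeq2 gave 209 and 9, the likelihood ratio test 232 and 7, the unfiltered fit and the GC correction 1 lower each, and leaving out a library 15 to 320 higher and 0 to 67 lower, the most without WT 3. Replicate numbers were shared between genotypes, but deviations of same-numbered libraries correlated only weakly (0.0937, 0.0694 and 0.177), so the numbers were not taken as pairs, although every library correlated best with its own number. The replicate block gave 120 higher and 0 lower genes, and -0.47 ± 0.465 (SE) for Mrc1. Every marker but Stab1 had 31 to 218 counts over the 6 libraries. On simulated counts for genes of all levels tested, 13% of 2-fold changes were recovered, so such changes in the markers could mostly go undetected. The parts of depth and of the spread between libraries in this were not tested.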
